A study of Mus musculus with 2 samples.

Results

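The skeletal progenitor transcription factors described here are 7 genes, Prrx1, Twist1, Six2, Msx1, Msx2, Dlx5 and Gli1, chosen by symbol and found once each among the 19465 genes that both libraries list. The series holds 2 spatial transcriptomics libraries, a method that counts RNA in place over a section. Each barcoded spot covers a small patch of tissue, often with more than 1 cell in it. The micropillar library came from nude mice given an implant that carries micropillars, small posts on its surface, and the flat library from nude mice given an implant with a flat surface. Both were labelled as bone and were cut from formalin-fixed, paraffin-embedded tissue. The nude background, which leaves a mouse without a working thymus and so largely without T cells, was shared by both groups. Sex, age, implant site, time after implantation and the number of animals behind a library are not stated in the sources used here. Per its title, the series addresses surface microtopography, the shape of nuclei, what cells secrete and the regeneration of bone. With 1 library for each implant, no test between implants could be made. All intervals below are 95% intervals of counting error only and do not cover differences between animals or sections.

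Prrx1, a paired-type homeodomain protein, and Twist1, a basic helix-loop-helix protein, mark mesenchyme of limb and skull, and Twist1 holds back osteoblast differentiation through Runx2. Six2 is a homeodomain factor of craniofacial mesenchyme and, in the kidney, of nephron progenitors. Msx1, Msx2 and Dlx5 are homeodomain factors that act downstream of or beside BMP signals in skull, tooth and skin. Msx2 is also required for normal hair cycling, and Dlx5 also acts in the ventral forebrain, where GABA-producing neurons arise. Gli1 is a zinc finger effector of hedgehog signalling whose transcription follows pathway activity, and it marks progenitors in cranial sutures and bone as well as cells of the hair follicle. The genes are therefore not particular to bone, and in which tissue of the section each was detected is the question taken up here.

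In mm10 with GENCODE M21, Prrx1 lies on the minus strand of chromosome 1 (163245119 to 163313710), Twist1 on the plus strand of chromosome 12 (33957671 to 33959829), Six2 on the minus strand of chromosome 17 (85684277 to 85688274) and Msx1 on the minus strand of chromosome 5 (37820485 to 37824583). Msx2 lies on the minus strand of chromosome 13 (53466884 to 53473074), Dlx5 on the minus strand of chromosome 6 (6877805 to 6882085) and Gli1 on the minus strand of chromosome 10 (127329882 to 127341974). Gli1 overlaps Arhgap9 on the opposite strand, a gene that the files also list, and the counting is not stated to use strand, so a part of its few UMIs could not be assigned with certainty. RefSeq promoter windows (build GRCm38.p6) were matched by symbol for 5 of the 7 genes, Prrx1, Twist1, Six2, Msx1 and Msx2. The 3 genes called higher in connective tissue than in brain spots, and Msx1, which was highest in choroid plexus spots, are shown 5′ to 3′, as the bases up to the start that also lie before every GENCODE transcript of the gene.
Prrx1, chr1:163313711-163313900, minus strand: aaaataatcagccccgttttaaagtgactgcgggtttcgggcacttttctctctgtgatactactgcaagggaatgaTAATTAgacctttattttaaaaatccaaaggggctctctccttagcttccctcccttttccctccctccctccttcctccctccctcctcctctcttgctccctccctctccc
Twist1, chr12:33957421-33957670, plus strand: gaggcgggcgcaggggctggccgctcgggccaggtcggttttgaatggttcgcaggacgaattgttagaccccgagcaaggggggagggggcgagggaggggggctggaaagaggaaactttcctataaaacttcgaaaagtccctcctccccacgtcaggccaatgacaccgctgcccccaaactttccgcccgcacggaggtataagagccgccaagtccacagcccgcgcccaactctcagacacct
Six2, chr17:85688275-85688504, minus strand: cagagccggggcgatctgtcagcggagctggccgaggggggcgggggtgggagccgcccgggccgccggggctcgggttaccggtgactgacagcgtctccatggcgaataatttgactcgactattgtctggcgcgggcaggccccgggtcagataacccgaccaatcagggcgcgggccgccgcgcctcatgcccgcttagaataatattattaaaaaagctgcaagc
Msx1, chr5:37824586-37824835, minus strand: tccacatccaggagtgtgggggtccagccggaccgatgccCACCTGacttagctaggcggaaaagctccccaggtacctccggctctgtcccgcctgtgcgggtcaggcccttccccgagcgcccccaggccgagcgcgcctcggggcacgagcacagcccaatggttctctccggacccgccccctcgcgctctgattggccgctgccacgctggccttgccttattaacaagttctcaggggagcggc
Capitals mark TAATTA, the core letters that many homeodomain proteins bind, and CANNTG, the E-box letters bound by basic helix-loop-helix proteins. Both strands of the 250 bases before the RefSeq start were searched. TAATTA was found in the Prrx1 window at -173 and in the Msx2 window at -187 (bases from the RefSeq start), against 4.84% of all 32851 windows of that length. The Msx2 window lay inside the first exon of the GENCODE gene and is not shown. CANNTG was found in the Msx1 window at -210 and in the Msx2 window at -79, and 66.2% of all windows hold it. GACCACCCA, a Gli consensus, was in none of the 5 windows and in 0.225% of all windows. A match is a description of letters, and no match says only that these letters are not in this window.

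Spots with at least 100 UMIs (unique molecular identifiers, each counting 1 captured molecule) were kept. These were 3064 of 3303 micropillar spots, with 3173632 UMIs, and 2681 of 3161 flat spots, with 2263345 UMIs. A kept spot held a median of 831 UMIs in the micropillar library and 602 UMIs in the flat library. The libraries shared 1709 kept barcodes, which name positions on the grid and not cells. Brain was the largest class of spots in both sections, with 1814 spots in the micropillar library and 1313 in the flat library. These held 71.9% of UMIs in the micropillar library and 75.7% in the flat library. Of the bone markers, Bglap (osteocalcin) had 483 UMIs in the micropillar library and 294 in the flat library, while Ibsp had 9 and 0 UMIs. Bone spots, as defined below, held 2.31% of UMIs in the micropillar library and 0.974% in the flat library, so spots with bone markers were a small part of each section.

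The 7 transcription factors were scarce in both sections and together as abundant in the micropillar as in the flat library within counting error. Their summed count was 304 UMIs in the micropillar library and 198 in the flat library, or 95.8 and 87.5 CPM (the count scaled to 1000000 UMIs of the library or of the spots named), a ratio of 1.09 (interval 0.913 to 1.32). At least 1 of the genes was detected in 260 micropillar spots and in 174 flat spots. Fewer cells of a type and less RNA per cell cannot be told apart in these values.

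Prrx1 had 69 UMIs in the micropillar library and 60 in the flat library (21.7 and 26.5 CPM, ratio 0.820, interval 0.572 to 1.18). Twist1 had 21 UMIs in the micropillar library and 20 in the flat library (6.62 and 8.84 CPM, ratio 0.749, interval 0.386 to 1.46). Six2 had 13 UMIs in the micropillar library and 14 in the flat library (4.10 and 6.19 CPM, ratio 0.662, interval 0.287 to 1.52). All 3 mesenchymal factors thus had slightly lower CPM in the micropillar library, and each interval includes equal levels.
Msx1 had 43 UMIs in the micropillar library and 21 in the flat library (13.5 and 9.28 CPM, ratio 1.46, interval 0.848 to 2.59). Msx2 had 77 UMIs in the micropillar library and 30 in the flat library (24.3 and 13.3 CPM, ratio 1.83, interval 1.19 to 2.89). Of the 7 intervals, that of Msx2 alone excluded equal levels. Hair follicle spots, where Msx2 lay mainly, made up 3.41% of UMIs in the micropillar library and 2.60% in the flat library, and the part of this in the section-wide ratio was not tested apart from the ratio within those spots given below. Dlx5 had 68 UMIs in the micropillar library and 49 in the flat library (21.4 and 21.6 CPM, ratio 0.990, interval 0.675 to 1.46). Gli1 had 13 UMIs in the micropillar library and 4 in the flat library (4.10 and 1.77 CPM, ratio 2.32, interval 0.716 to 9.76), too few to order the libraries.

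With a pseudocount of 1 CPM, 0 of the 7 genes were past 2-fold between implants, against 3.95% of the 11887 genes with at least 5 CPM in 1 library, 5.35% of all genes and 7.51% of the 5270 genes with 5 to 30 CPM in the library where they were higher. The log2 ratio of micropillar over flat ran from -0.50 for Six2 to 0.88 for Gli1, with a median of -0.01 over the 7 genes, 3 of which were higher in the micropillar library. The median over the genes with at least 5 CPM was 0.06 (quartiles -0.15 and 0.28). The log2 ratio of Prrx1, -0.27 over the kept spots, turned to 0.76 over spots with at least 500 UMIs, and was -0.86 as a mean of per-spot CPM.

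**Figure D1:**
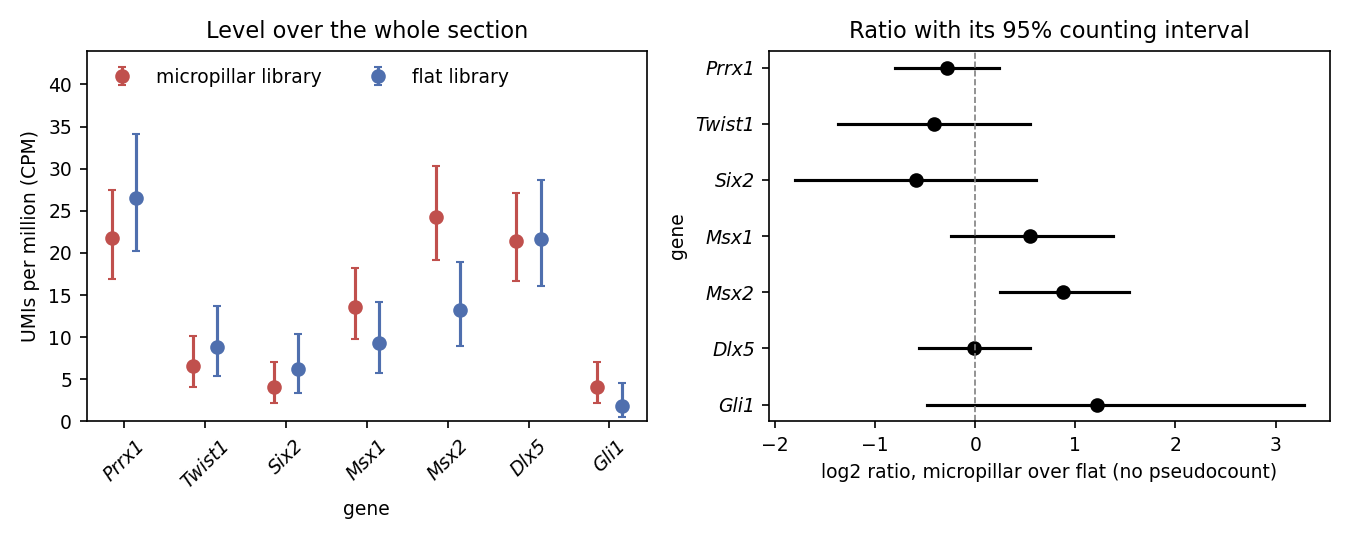
Level of each gene over all kept spots in CPM with its exact Poisson 95% interval (left, micropillar in red and flat in blue), and log2 ratio of micropillar over flat without a pseudocount with its 95% counting interval (right). Msx2, at 24.3 CPM in the micropillar and 13.3 CPM in the flat library, is the gene whose interval lies off the dashed line of equal levels.

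Spots were then put into classes by marker genes, none of which is among the 7. A spot went to the non-brain class with the highest marker count over expectation if it held at least 2 marker UMIs and at least 3 times the expected number, and otherwise to brain if it held at least 2 brain marker UMIs and at least 0.5 times the expected number. A class is a set of spots that hold those markers, not a pure cell type. Spots with markers of at least 2 non-brain classes numbered 379 in the micropillar library and 431 in the flat library. Connective tissue (fibrous) spots, led by Col1a2, Col3a1 and Col1a1, numbered 324 in the micropillar library and 343 in the flat library, and bone spots, led by Bglap, Mmp13 and Col1a2, numbered 69 and 53. Hair follicle spots, led by Tchh and hair keratins, numbered 172 in the micropillar library and 110 in the flat library, and epidermis spots, led by Lor and Krtdap, numbered 176 and 215. Skeletal muscle spots numbered 55 in the micropillar library and 272 in the flat library. Choroid plexus spots, led by Ttr, numbered 52 in the micropillar library and 37 in the flat library. The 38 micropillar and 28 flat meningeal spots were led by Slc6a20a but also by Avp and Gfap, so they were mixed with brain.

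The genes differed in the spots where their counts lay. Prrx1 and Twist1 had more UMIs in fibrous spots than in any other class of either library, and Six2 had 6 of 13 UMIs there in the micropillar library and 5 of 14 in the flat library. Msx2 lay mainly in hair follicle spots. Msx1 had its highest level in choroid plexus spots, with 12 of 43 UMIs there in the micropillar library and 9 of 21 in the flat library. In the micropillar library hair follicle spots also held 12 Msx1 UMIs and brain spots 10. Most Dlx5 UMIs lay in brain spots, which held a like share of all UMIs. Bone spots held few UMIs of any of them, 16 over the 7 genes in the micropillar library and 5 in the flat library. A gene was called higher in a class when its level was at least 2-fold that of brain spots in both libraries, with a pseudocount of 1 UMI. The share of all 13337 genes with at least 10 UMIs that met this rule is given as the background of each class.

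**Figure D2:**
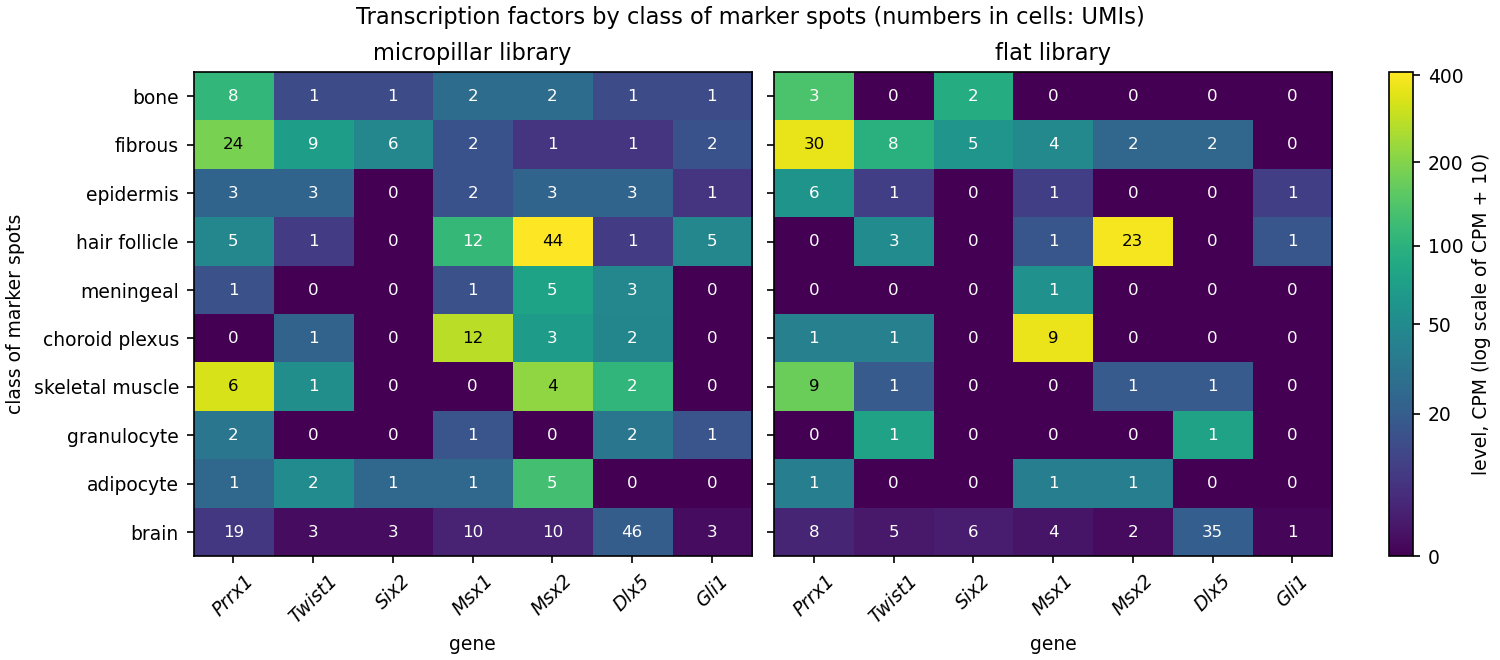
Level of each gene (columns) in each class of marker spots (rows) in the micropillar library (left) and the flat library (right). Colour is CPM on a log scale of CPM + 10 and the number in a cell is its UMI count. Msx2 in hair follicle spots (44 UMIs in the micropillar, 23 in the flat library) and Msx1 in choroid plexus spots (12 and 9 UMIs) stand apart from their columns, and 1 UMI alone gives a bright cell in small classes such as skeletal muscle in the micropillar library.

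In fibrous spots, 3 of the 7 genes were called higher than in brain spots, Prrx1, Twist1 and Six2, against a background of 11.7%. Prrx1 had 24 UMIs (187 CPM) in fibrous spots of the micropillar library and 30 UMIs (362 CPM) in those of the flat library. In brain spots it had 19 UMIs (8.32 CPM) in the micropillar library and 8 UMIs (4.67 CPM) in the flat library. The fibrous level was 22.5-fold the brain level in the micropillar library (interval 11.8 to 43.4) and 77.5-fold in the flat library (interval 34.7 to 196). Of all Prrx1 UMIs, 34.8% lay in fibrous spots of the micropillar library (Clopper-Pearson interval 23.7 to 47.2%) and 30 of 60 UMIs in those of the flat library (36.8 to 63.2%).
Twist1 had 9 UMIs (70.2 CPM) in fibrous spots of the micropillar library and 8 UMIs (96.6 CPM) in those of the flat library, which was 53.4-fold (interval 13.3 to 307) and 33.1-fold (9.54 to 129) its brain level. Six2 had 6 UMIs (46.8 CPM) in fibrous spots of the micropillar library and 5 UMIs (60.4 CPM) in those of the flat library, 35.6-fold (7.61 to 220) and 17.2-fold (4.16 to 67.8) its brain level. The genes thus shared a class in both libraries on few counts. For Six2 this class was not the highest in the flat library, where bone spots stood at 90.7 CPM on 2 UMIs. Flat brain spots held 6 of its 14 UMIs, more than the fibrous spots. In spots with at least 500 UMIs, of which 126 were fibrous in the micropillar library and 20 in the flat library, Prrx1 alone kept the call. The share of all genes called in them also fell, from 11.7% to 4.72%.

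All 3 were also higher in fibrous than in skin spots, which join epidermis and hair follicle. Prrx1 had 8 UMIs (33.7 CPM) in skin spots of the micropillar library and 6 UMIs (37.5 CPM) in those of the flat library, and the fibrous level was 5.55-fold (interval 2.41 to 14.3) and 9.65-fold (3.95 to 28.4) as high. Twist1 was 4.17-fold higher in fibrous than in skin spots in the micropillar library (1.16 to 18.5) and 3.86-fold in the flat library (1.03 to 17.5). Six2 had 0 UMIs in skin spots of both libraries, with exact Poisson upper limits of 15.5 CPM in the micropillar and 23.1 CPM in the flat library. Its fibrous level was at least 3.70-fold higher in the micropillar library and at least 3.22-fold higher in the flat library when taken against 3 UMIs in skin spots, and with the counting error of the fibrous UMIs included the exact intervals begin at 2.18 in the micropillar and 1.77 in the flat library.

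Within fibrous spots, Prrx1 was lower in the micropillar library, at 0.517 times the flat level (interval 0.289 to 0.915). The log2 ratio of -0.95 kept its sign over 6 other settings of the spot classes, from -1.22 to -0.61. The fibrous marker level of these spots was also lower in the micropillar library, 63976 CPM against 74337 CPM in the flat library, and their brain marker level was higher, 2309 CPM against 929.5 CPM. Per 1000 UMIs of the fibrous markers, Prrx1 had 2.93 UMIs in fibrous spots of the micropillar library (interval 1.88 to 4.35) and 4.87 in those of the flat library (3.29 to 6.95), so these intervals overlap. The part of spot makeup in the difference was not tested further. Twist1 had a ratio of 0.727 (0.249 to 2.17) and Six2 of 0.776 (0.197 to 3.21) within fibrous spots, neither of which orders the libraries.
Fibrous spots with a Prrx1 UMI were rich in fibrous markers. They held 91808 CPM of the marker list in the micropillar library (23 spots) and 90773 CPM in the flat library (29 spots), against 60985 and 72416 CPM in the fibrous spots without one. Spots with a Prrx1 UMI were also deeper, with a median of 470 UMIs in the micropillar library and 240 in the flat library, against 317 and 206 in those without. The part of depth in this was not tested.

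Bone spots were set by bone markers such as Bglap and Mmp13, so parts of the labelled tissue without these markers may lie in other classes. Prrx1 was the 1 of 7 genes called higher in bone than in brain spots, against a background of 3.55%. It had 8 UMIs (109 CPM) in bone spots of the micropillar library and 3 UMIs (136 CPM) in those of the flat library, 13.1-fold (interval 4.97 to 31.4) and 29.1-fold (4.98 to 121) its brain level. The fibrous level of Prrx1 was 1.72 times (0.746 to 4.42) and 2.66 times (0.828 to 13.6) its bone level, so fibrous and bone spots could not be ordered. Bone spots held fibrous markers too, 27686.5 CPM in the micropillar library and 52414 CPM in the flat library, and were fewer than fibrous spots. Of the others, Six2 had 1 UMI in bone spots of the micropillar library and 2 in those of the flat library, Msx1 had 2 and 0, Msx2 had 2 and 0, and Twist1, Dlx5 and Gli1 each had 1 and 0. Dlx5, Msx2 and Twist1, which act in osteoblast differentiation, were thus all under 3 UMIs in bone spots, a count that amounts to 40.9 CPM there in the micropillar library and 136 CPM in the flat library, and were not detectable above that limit. The Prrx1 call in bone spots was lost when spots with markers of another non-brain class were left out, and with at least 4 marker UMIs or 500 UMIs per spot. These rules left 6, 17 and 16 flat bone spots, with 6574, 7470 and 13686 UMIs. The share of all genes called fell from 3.55% to 0.12%, 1.33% and 2.11%. With so few counts a call could hardly be made, so the loss says little about Prrx1.

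In skeletal muscle spots Prrx1 had 6 UMIs (323 CPM) in the micropillar library and 9 UMIs (173 CPM) in the flat library, and it was the 1 of 7 genes called higher there than in brain spots, against a background of 3.72%. These spots held fibrous markers as well, at 19383 CPM in the micropillar library and 10455 CPM in the flat library. The 4 micropillar spots with a Prrx1 UMI held 51454 CPM of them, against 17761 CPM in those without. In the flat library the values lay closer, at 13099 CPM in the 9 spots with a Prrx1 UMI and 10312 CPM in those without. The part of fibrous tissue in the Prrx1 level of muscle spots was not tested. In the micropillar library the order of skeletal muscle, fibrous and bone spots for Prrx1 rests on intervals that include equal levels at each step, and the same holds for fibrous, skeletal muscle and bone spots in the flat library. Leaving out spots with markers of another non-brain class turned the micropillar muscle value below that of brain, as did a minimum of 500 UMIs per spot. These sets held 8278 and 74092 UMIs, against 18573 UMIs under the main rules. The set at 500 UMIs was thus the larger one, and the higher Prrx1 level was not kept in it. With the pseudocount of 1 UMI, a gene without a UMI in a set falls below brain by rule, so no level below brain is shown.

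Skin spots held fibrous markers too, at 10188 CPM in the micropillar library and 11666 CPM in the flat library. In skin spots, 5 of the 7 genes were called higher than in brain spots (Prrx1, Twist1, Msx1, Msx2 and Gli1), against a background of 17.5%, and Msx2 was the most concentrated. Within hair follicle spots the count was 1 of 7 (Msx2) against a background of 12.5%, and in epidermis spots it was 0 of 7 against 14.0%. Msx2 had 44 UMIs (407 CPM) in hair follicle spots of the micropillar library and 23 UMIs (391 CPM) in those of the flat library. In brain spots it had 10 UMIs (4.38 CPM) in the micropillar library and 2 UMIs (1.17 CPM) in the flat library. The hair follicle level was 92.9-fold (interval 46.1 to 207) the brain level in the micropillar library and 335-fold (82.7 to 2929) in the flat library. Hair follicle spots held 57.1% of all Msx2 UMIs in the micropillar library (45.4 to 68.4%) and 76.7% in the flat library (57.7 to 90.1%).
Among the skin classes the Msx2 counts lay in the follicle. Epidermis spots had 3 UMIs in the micropillar library and 0 in the flat library, and hair follicle spots were 17.5-fold higher in the micropillar library (5.61 to 88.2) and at least 13.2-fold higher in the flat library when taken against 3 UMIs, where the exact interval begins at 9.87. Against fibrous spots, with 1 UMI in the micropillar and 2 in the flat library, the ratio was 52.1 (8.88 to 2106) and 16.2 (4.0 to 142). In the flat library the interval against the next class, adipocyte spots, excluded equal levels, while in the micropillar library that against skeletal muscle spots, which had 4 Msx2 UMIs, did not. Up to 4 Msx2 UMIs fell in 1 spot of the micropillar library and up to 2 in 1 spot of the flat library.

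Within hair follicle spots, the Msx2 ratio of micropillar over flat was 1.04 (0.615 to 1.81), beside 1.83 over the section. Per 1000 UMIs of the hair follicle markers, Msx2 had 9.06 UMIs in the micropillar library (6.58 to 12.2) and 9.02 in the flat library (5.72 to 13.5). Outside skin and muscle spots Msx2 had a log2 ratio of 1.34, past 2-fold, on the few UMIs left.
Gli1 had 5 UMIs in hair follicle spots of the micropillar library and 1 in those of the flat library, against 3 and 1 UMIs in brain spots. Over skin, its 6 UMIs (25.3 CPM) in the micropillar and 2 UMIs (12.5 CPM) in the flat library were 19.2-fold (4.11 to 119) and 21.4-fold (1.12 to 1264) its brain level. Fibrous spots held 2 Gli1 UMIs in the micropillar library and 0 in the flat library, and bone spots 1 and 0.

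Msx1 was highest in choroid plexus spots, the class of the epithelium that makes cerebrospinal fluid, in both libraries. It had 12 UMIs (276 CPM) there in the micropillar library and 9 UMIs (365 CPM) in the flat library. In brain spots it had 10 UMIs (4.38 CPM) in the micropillar library and 4 UMIs (2.34 CPM) in the flat library, so the choroid plexus level was 63.0-fold (interval 24.9 to 163) and 156-fold (43.7 to 695) as high. It was the 1 of 7 genes called in that class, against a background of 3.16%. Choroid plexus spots with an Msx1 UMI held 9351 CPM of choroid plexus markers in the micropillar library (11 spots) and 10235 CPM in the flat library (9 spots), against 5148 and 6838 CPM in those without. Between implants the ratio within this class was 0.755 (0.292 to 2.03).
The next class for Msx1 in the micropillar library was the hair follicle. Hair follicle spots held 12 Msx1 UMIs (111 CPM) in the micropillar library and 1 UMI (17.0 CPM) in the flat library, a ratio of 6.53 whose interval of 0.966 to 279 just includes equal levels. Over all skin spots Msx1 had 14 UMIs (59.0 CPM) in the micropillar library and 2 UMIs (12.5 CPM) in the flat library, a ratio of 4.72 (1.08 to 42.7). The hair follicle markers themselves stood at 44894 CPM in hair follicle spots of the micropillar library and 43330.5 CPM in those of the flat library. The choroid plexus level was 2.49-fold the hair follicle level in the micropillar library (1.02 to 6.05) and 21.5-fold in the flat library (2.98 to 943).

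**Figure D3:**
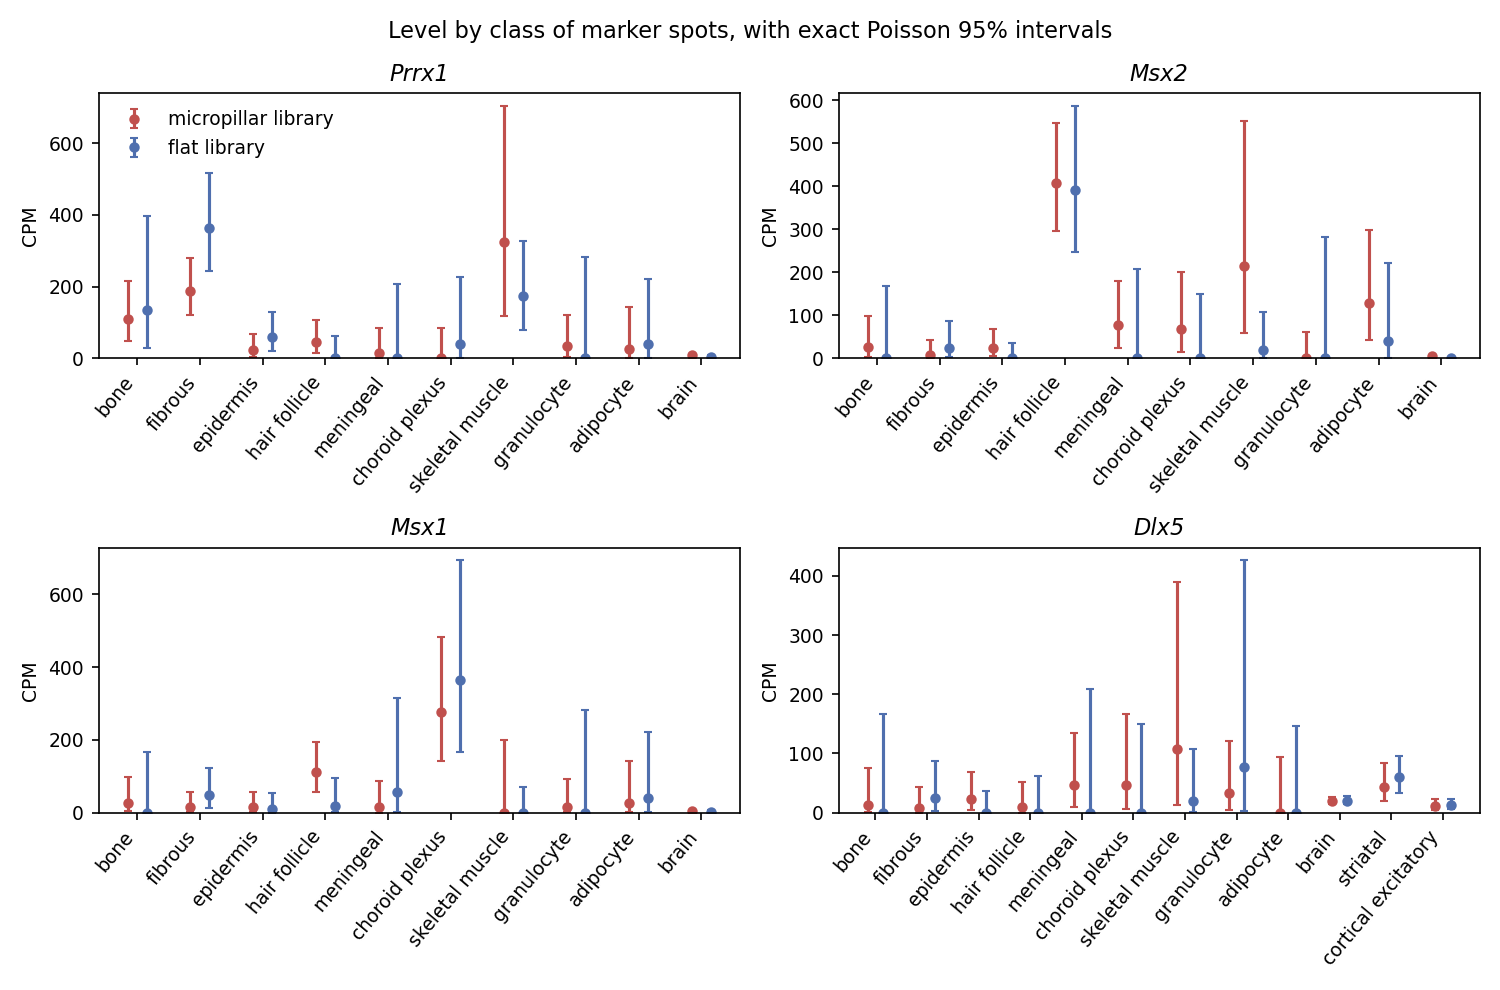
Level in CPM of Prrx1, Msx2, Msx1 and Dlx5 in each class of marker spots, with exact Poisson 95% intervals, micropillar in red and flat in blue. For Dlx5 the striatal and cortical excitatory spots are subsets of brain spots. Msx2 in hair follicle spots (407 CPM in the micropillar, 391 CPM in the flat library) and Msx1 in choroid plexus spots (276 and 365 CPM) are the classes with the clearest peaks, and intervals are wide where a class is small.

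In meningeal spots, 0 of the 7 genes were called higher than in brain spots, against a background of 0.9%. Msx2 had 5 UMIs there in the micropillar library and 0 in the flat library, Dlx5 had 3 and 0, Msx1 had 1 and 1, and Prrx1 had 1 and 0. Twist1, Six2 and Gli1 had 0 UMIs in both. The flat meningeal spots held 17708 UMIs in all, where 3 UMIs amount to 169 CPM, so a count of 0 there does not exclude a level like that of Prrx1 in bone spots.

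Dlx5 UMIs lay mainly in brain spots. These held 46 of its 68 UMIs in the micropillar library (67.6%, interval 55.2 to 78.5%) and 35 of 49 in the flat library (71.4%, 56.7 to 83.4%). Its level there was 20.1 CPM in the micropillar library and 20.4 CPM in the flat library, a ratio of 0.986 (0.622 to 1.58). Brain spots held a like share of all UMIs, 71.9% in the micropillar library and 75.7% in the flat library, and Dlx5 was called higher than in brain spots in none of the 10 sets of spots compared with them.
Within brain, Dlx5 was higher in spots with striatal markers than in spots with cortical excitatory markers. Striatal spots had 9 UMIs (44.1 CPM) in the micropillar library and 16 UMIs (59.4 CPM) in the flat library, and cortical excitatory spots had 7 UMIs (11.2 CPM) and 9 UMIs (12.2 CPM). The ratio was 3.95 (1.31 to 12.5) in the micropillar library and 4.88 (2.03 to 12.5) in the flat library, and 2.75% of the 13337 genes with at least 10 UMIs were 2-fold higher in both. Its paralog and chromosomal neighbour Dlx6, named after its values were seen, had 39.2 CPM in striatal spots of the micropillar library and 44.6 CPM in those of the flat library, against 6.38 and 4.06 CPM in cortical excitatory spots. The paralogs Dlx1 and Dlx2, also named after their values were seen, went the other way. Dlx1 had 4.91 CPM in micropillar and 11.1 CPM in flat striatal spots, against 30.3 and 31.1 CPM in cortical excitatory spots. Dlx2 had 1 and 0 UMIs in striatal spots, against 5 and 3 UMIs in cortical excitatory spots. Spots with interneuron markers had 9 Dlx5 UMIs (22.2 CPM) in the micropillar and 1 UMI (3.51 CPM) in the flat library. The striatal level was 1.99 times theirs in the micropillar library, where the interval holds equal levels (0.699 to 5.65). In the flat library it was 16.9 times theirs (2.63 to 710). Dlx5 stood at 20.7 CPM in micropillar and 11.1 CPM in flat astrocyte spots. It stood at 16.3 and 33.0 CPM in oligodendrocyte spots and at 20.5 and 17.9 CPM in hypothalamic spots. Spots of no class, led by the neuropeptide genes Oxt and Avp, had 7 Dlx5 UMIs (31.0 CPM) in the micropillar library and 10 UMIs (65.3 CPM) in the flat library, a ratio of 0.474 (0.153 to 1.38). Their Dlx5 level was 1.54-fold that of brain spots in the micropillar library, with an exact interval that holds equal levels (0.586 to 3.43), and 3.20-fold in the flat library, with an interval that begins at 1.41.

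**Figure D4:**
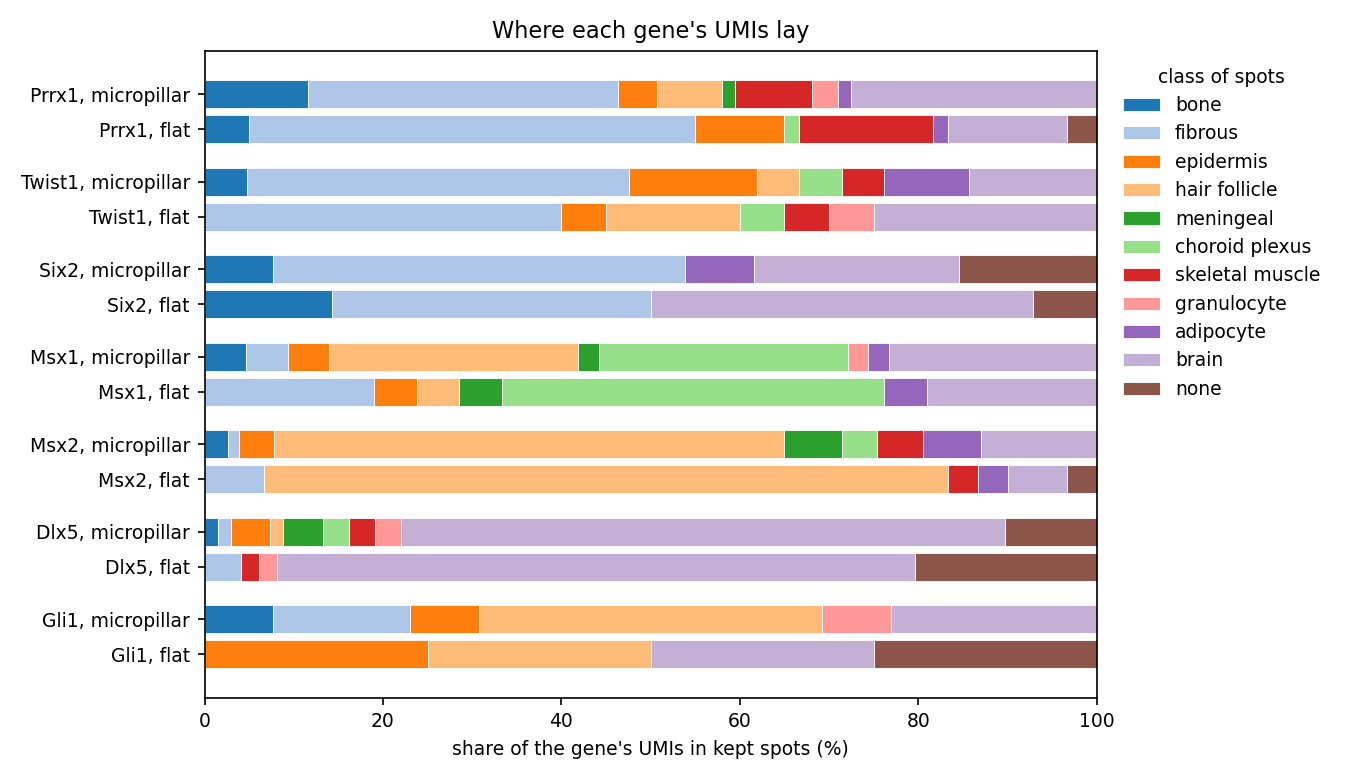
Share of each gene's UMIs in kept spots that lay in each class of spots, with the micropillar library above the flat library for each gene. Fibrous spots (light blue) hold the longest part for Prrx1, with 24 of 69 UMIs in the micropillar and 30 of 60 in the flat library, hair follicle spots (light orange) for Msx2, at 57.1% and 76.7%, and brain spots (light purple) for Dlx5, at 67.6% and 71.4%.

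The genes were seldom caught in the same spot. At least 2 of the 7 were detected together in 20 spots of the micropillar library and in 7 of the flat library, and no spot held 3 of them. Prrx1 and Twist1 shared 2 spots in each library, which was 3.17% of the 63 Prrx1 spots and 9.52% of the 21 Twist1 spots in the micropillar library, and 3.64% of 55 and 10.0% of 20 in the flat library. Prrx1 and Six2 shared 3 spots in the micropillar library and 1 in the flat library. Prrx1 and Msx2 shared 5 spots in the micropillar library and 0 in the flat library. With most detections resting on 1 UMI, absence of a shared spot says little about the cells.

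Genes of the same families and pathways showed which neighbours shared these places. Of 14 measured paralogs, 11 had at least 10 UMIs, and 3 of these were called higher in fibrous than in brain spots (among them Prrx2 and Six5) and 4 in hair follicle spots (Six5, Dlx2, Dlx3 and Gli2), against backgrounds of 11.7% and 12.5%. Prrx2, the paralog of Prrx1, had 7 UMIs (54.6 CPM) in fibrous spots of the micropillar library and 6 UMIs (72.4 CPM) in those of the flat library, with 1 and 3 UMIs in brain spots. Dlx3, a regulator of hair and epidermis, had 22 UMIs (203 CPM) in hair follicle spots of the micropillar library and 4 UMIs (68.0 CPM) in those of the flat library. Over the section Dlx3 had 29 UMIs in the micropillar library and 9 in the flat library, a log2 ratio of 1.03. It was the 1 of 10 paralogs with at least 5 CPM past 2-fold, against 3.95% of all such genes. The median log2 ratio of the paralogs was 0.23. Six3, a forebrain and eye factor and the most abundant paralog, had 593 UMIs in the micropillar library and 268 in the flat library (log2 ratio 0.65), of which 479 and 212 lay in brain spots.

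Of the hedgehog pathway, 10 of 12 measured genes had at least 10 UMIs. Of these, 2 were called in fibrous spots (among them Gas1), against a background of 11.7%. In hair follicle spots 3 were called (among them Smo and Gas1), against a background of 12.5%. Between implants 2 of the 9 pathway genes with at least 5 CPM were past 2-fold, both higher in the micropillar library, and Shh is the one described here. Of all genes with at least 5 CPM, 3.95% were past 2-fold, and of those with 5 to 30 CPM 7.51% were. Shh, a ligand, had 107 UMIs in the micropillar library and 36 in the flat library (log2 ratio 1.04), of which 87 and 30 lay in brain spots. Boc, a co-receptor and the most abundant of the list, had 126 UMIs in the micropillar library and 149 in the flat library (log2 ratio -0.72). The list's median log2 ratio was 0.04, beside 0.06 over all genes with at least 5 CPM.

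Of 7 osteoblast and cartilage factors, all with at least 10 UMIs, 1 was called in fibrous spots (Runx2), 0 in bone spots and 1 in hair follicle spots (Sox9), against backgrounds of 11.7%, 3.55% and 12.5%. A share of 1 in 7 is near the background of fibrous and hair follicle spots. Runx2, the factor that commits cells to the osteoblast line, had 17 UMIs (133 CPM) in fibrous spots of the micropillar library and 16 UMIs (193 CPM) in those of the flat library, and in bone spots 4 UMIs (54.6 CPM) and 10 UMIs (453 CPM). Brain spots held 61 of 111 Runx2 UMIs in the micropillar library (26.7 CPM) and 47 of 93 in the flat library (27.4 CPM). Sp7, which acts after Runx2, had 0 UMIs in bone spots of both libraries and 11 UMIs in the micropillar section and 2 in the flat section. Of these Sp7 UMIs, 7 in the micropillar and 1 in the flat library lay in brain spots. The list's median log2 ratio between implants was -0.17, with 0 genes past 2-fold among the 6 with at least 5 CPM. Its most abundant gene, Atf4, a stress and matrix synthesis factor, had a log2 ratio of 0.45.
The counts of the 4 lists that follow stand against backgrounds of 11.7% of genes in fibrous, 12.5% in hair follicle and 17.5% in skin spots. Of 16 craniofacial and suture factors, 11 had at least 10 UMIs and 5 of these were called in fibrous spots (Foxc1, Foxc2, Osr1, Snai1 and Snai2). In skin spots 5 were called too (Foxc1, Tfap2a, Osr2, Snai1 and Snai2), and in hair follicle spots 3. Foxc1 had 101 CPM in micropillar and 48.3 CPM in flat fibrous spots, and 250 and 340 CPM in hair follicle spots. Zic1, also a factor of the dorsal brain, had 496 UMIs in the micropillar library and 148 in the flat library (log2 ratio 1.24), and Osr1, with the lowest ratio among those with at least 20 UMIs, had 21 and 18 UMIs (log2 ratio -0.23). The median log2 ratio over the 8 craniofacial factors with at least 5 CPM was 0.17. Of the list of Twist1 partners and Id factors, 2 of 7 were called in fibrous spots (Id1 and Id3) and 3 in hair follicle spots (Tcf3, Id1 and Id3). Tcf4, a basic helix-loop-helix partner of Twist1, had 895 UMIs in the micropillar library and 670 in the flat library (log2 ratio -0.07), Id4 had the highest ratio at 0.55 and Id2 the lowest at -0.29, with a median of 0.11 over the list. Of 6 BMP pathway targets and inhibitors, 0 were called in fibrous spots and 3 in hair follicle spots (Smad6, Smad7 and Bambi), where Msx2 lay. The inhibitor Chrd had a log2 ratio of -0.43 between implants and Smad7 of 0.61, beside a median of -0.29 over the 5 genes with at least 5 CPM. Of 10 progenitor surface and stromal genes, 9 had at least 10 UMIs and 5 of these were called in fibrous spots (Pdgfra, Pdgfrb, Cxcl12, Mcam and Postn). In skin spots 5 were called too (Pdgfrb, Cxcl12, Nt5e, Mcam and Postn), and in hair follicle spots 3. Thy1, also a neuronal surface gene, had a log2 ratio of -0.05, Postn of 0.54 and Mcam of -0.23, beside a median of 0.17 over 8 genes. None of these last 4 lists but the craniofacial one had a gene with at least 5 CPM past 2-fold between implants, and in it Zic1 was higher and Osr2 (5 UMIs in the micropillar and 13 in the flat library) lower. Of all genes with at least 5 CPM, 3.95% were past 2-fold.

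The genes with the most similar pattern over classes were named by the Pearson correlation of log2(CPM + 10) over 20 points, 10 classes in each library, among 10110 genes with at least 50 UMIs. Points of a library share its depth, and the small classes rest on few counts, so r is a description. For Prrx1 the highest were Hvcn1 (r = 0.85), Rcn3 (0.83) and Mmp12 (0.82). For Msx2 they were S100a7a (0.89), the hair desmoglein Dsg4 (0.80) and Gprc5d (0.79). For Msx1 they were Rdh5 (0.82), the metallothionein Mt1 (0.82) and the ciliary factor Foxj1 (0.80). For Dlx5 they were Brf2 (0.90), Rnf40 (0.84) and Unc5c (0.81). None of these 12 genes was a class marker.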

How the data were processed

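As deposited by the authors, the matrices give raw UMI counts, 1 whole number for each gene in each spot, with no normalisation. Space Ranger 2.0.1 is named per the file headers. Cell Ranger 7.2.0 and mm10 are named per the submitters' processing notes, and a directional mRNA kit per the labels' protocol, so the tool that made the files is not settled. Aligner settings, the probe set and any use of strand are not stated there. No spot position or image was used here. Of 19465 gene identifiers, 19451 matched GENCODE M21. Counts were summed over kept spots and divided by the summed UMIs of the same spots to give CPM. Levels have exact Poisson intervals, shares and ratios of counts exact Clopper-Pearson ones. A fold against 0 UMIs was taken against 3 UMIs in that set of spots and is a lower bound. UMIs count molecules, and intervals cover counting error only. A probe or capture bias per gene was not corrected, so levels are compared between spots and libraries and not between genes.

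The 7 genes, the marker lists and the 7 related lists were chosen with earlier results of these data known. Named by rule were the 7 genes, and of each related list the gene with most UMIs and those with the highest and lowest log2 ratio among genes with at least 20 UMIs. For likeness the 3 genes with the highest r were taken for each of the 4 factors with at least 50 UMIs. Some genes that this rule or the calls select are not reported here. Other genes of the lists are named where a list's calls are counted, and Dlx6, Dlx1, Dlx2, Foxc1, Sp7 and Osr2 were chosen for their values after these were seen. No doublet caller was run and no cell-type makeup was estimated, since a spot is an area. Alternatives covered scaling, the minimum of UMIs, the weight of each spot, the pseudocount, the class rules and the spots kept. Within-class values and values over brain under other class rules were added after seeing the data. Scripts ran in Python 3.11.15 with numpy 2.4.6, scipy 1.17.1, pandas 2.3.3 and matplotlib 3.10.9, and edgeR 4.0.16 (TMM factors) and DESeq2 1.42.0 (size factors) ran in R 4.3.3 for scaling alone. The procedure was tested on simulated data.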

Additional observations from a re-analysis of the deposited data

Results flagged for a closer look

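Spots with fewer than 100 UMIs were left out of every comparison. In the flat library the 480 such spots held 7 UMIs of the 7 transcription factors among 22950 UMIs, or 305 CPM, above the 131 CPM that 3 UMIs amount to there. In the micropillar library the 239 such spots held 3 UMIs among 15345 UMIs, or 196 CPM, at that limit. Of the flat UMIs, 3 were Prrx1, 2 were Twist1, 1 was Msx2 and 1 was Dlx5, and of the micropillar UMIs, 1 was Prrx1 and 2 were Twist1. The tissue under these spots was not determined.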

How the results depend on the processing

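No paired analysis was possible because each group had 1 library and the labels pair no samples. The log2 ratio of the 7 genes summed, 0.13 as reported, was 0.47 over spots with at least 500 UMIs and -0.26 as a mean of per-spot CPM. The count of genes past 2-fold between implants, 0 as reported, was 2 as a mean of per-spot CPM (Six2 lower at -1.07 and Gli1 higher at 1.27) and 1 without skeletal muscle and skin spots (Msx2 at 1.34). The share of all genes with at least 5 CPM past 2-fold was 8.95% and 4.23% in these settings, beside 3.95% as reported. With at least 500 UMIs per spot the counts called over brain spots were 0 in bone, 1 in fibrous and 3 in skin spots. The backgrounds fell as well, to 2.11%, 4.72% and 15.4%, from 3.55%, 11.7% and 17.5%. The bone count was also 0 with at least 4 marker UMIs (background 1.33%) and when spots with markers of another non-brain class were left out (background 0.12%). The skin count was also 3 with that omission (background 14.5%) and as a mean of per-spot CPM (background 16.1%). Values that turned direction were Twist1 in fibrous over brain spots of the flat library, with a log2 ratio of -0.036 at 500 UMIs, Prrx1 in skeletal muscle over brain spots of the micropillar library, at -0.65 with 500 UMIs and -0.096 without spots of another class, and Prrx1 in bone over brain spots of the flat library, at -0.044 without spots of another class. Most of the sets behind these values were small. At 500 UMIs, flat fibrous spots held 13645 UMIs. Micropillar muscle spots held 74092 UMIs at that minimum, more than the 18573 UMIs they held under the main rules. Without spots of another class, micropillar muscle spots held 8278 UMIs and flat bone spots 6574. With the pseudocount of 1 UMI, a gene counted in brain spots but not in such a set takes a negative value. These values therefore do not show a level below that of brain spots. The cause of these changes was not tested further. Log2 ratios over brain spots in this paragraph hold a pseudocount of 1 UMI at the depth of the class. They are therefore smaller than the folds given above, which have none. Over all settings Msx2 in hair follicle over brain spots ran from 4.16 to 4.98 in the micropillar library (4.93 under the main rules). In the flat library it ran from 3.66 to 4.55 (4.49). Msx1 in choroid plexus over brain spots ran from 3.14 to 3.78 in the micropillar library (3.45). In the flat library it ran from 3.10 to 3.25 (3.24). Section-wide, Msx2 stayed higher in the micropillar library, from 0.68 to 1.34. TMM and DESeq2 scaling moved the median of all genes to -0.01, from 0.06. Depth limits every small class, since 3 UMIs amount to 40.9 CPM in micropillar and 136 CPM in flat bone spots, and to 229 CPM in flat granulocyte spots.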
